A study of Mus musculus with 6 samples.

Results

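Hair follicle and epidermal stem cell markers are genes used to tell the stem and progenitor compartments of mouse skin apart. The 10 genes described here are Lgr4, Lgr5, Lgr6, Lrig1, Cd34, Lhx2, Nfatc1, Tcf7l1, Foxn1 and Cd44, taken by name from the 30349 genes listed in the expression table, where all 10 were found. Their RNA was compared between 3 p63 alphaKO libraries (replicates 9, 10 and 11) and 3 wild type libraries (replicates 13, 14 and 15) of primary mouse keratinocytes. All 6 cultures were started from epidermis taken at postnatal day 2. Per the labels they reached confluence after 5 to 6 days in a medium low in calcium (0.05 mM) that held 2.5 ng/mL EGF and 4% chelated serum. RNA was sequenced near the 3' ends of transcripts (3' digital gene expression), which gives 1 level per gene and seldom tells isoforms apart. The labels name the genotype p63 alphaKO without saying which part of Trp63 is altered or whether replicates come from separate mice, so p-values measure the spread between these libraries, which may be technical. A strain is not named in the sources used here.

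The hair follicle keeps stem cells in anatomically separate zones. Cells of the bulge, which rest for long periods, are known for CD34 and for the transcription factors LHX2, NFATC1 and TCF7L1, and the cycling lower bulge and hair germ for LGR5. The isthmus and junctional zone above them are known for LGR6 and LRIG1, while FOXN1 drives keratinocytes out of the progenitor state and into hair and epidermal differentiation. LGR4 and CD44 are broader: LGR4 is found in many epithelia, and CD44, the hyaluronan receptor, on basal keratinocytes of skin in general. The protein p63, encoded by Trp63, is the transcription factor that maintains the proliferative potential of stratified epithelia.

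Levels are given as CPM, reads per 1000000 reads counted in a library. The libraries held 1699716 to 2999246 reads in p63 alphaKO and 3146374 to 3215333 reads in wild type. A gene listed at 0 may have up to 1.76 CPM in the shallowest library and 0.93 CPM in the deepest, the level of 3 reads; this limit covers counting error only. The 10 keratinocyte markers summed to 27390 to 39230 CPM in p63 alphaKO and 32110 to 37540 CPM in wild type. Trp63 itself was at 49.8, 59.3 and 57.0 CPM in p63 alphaKO and 38.0, 53.2 and 48.9 CPM in wild type, and, with the altered part of the gene not stated, this level was not used to check the genotype. On the first principal component of the genes tested (33.2% of the variance), p63 alphaKO replicate 11 (61.15) stood far from the rest. Wild type replicate 15 (13.55) came next, nearer to the other 4 libraries (-26.86 to -8.74) than to p63 alphaKO replicate 11. The value without both is given for each marker tested. Other cell types were present at levels that differed between libraries. Melanocyte markers summed to 232 to 1034 CPM in p63 alphaKO and 312 to 828 CPM in wild type, and muscle markers to 17.4 to 74.1 CPM in p63 alphaKO and 78.2 to 694 CPM in wild type. The part of these cells in the results below was not tested. In such bulk RNA, fewer cells of a type and less RNA per cell cannot be told apart.

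None of the 7 stem cell markers that averaged at least 1 CPM differed between p63 alphaKO and wild type keratinocytes past the threshold. Cd44 was at 274 to 461 CPM in the 6 libraries, and Foxn1, Tcf7l1, Nfatc1, Lgr4 and Lrig1 were also read in all of them, at 2.22 to 48.9 CPM. Lhx2, Cd34, Lgr6 and Lgr5 lay between 0 and 2.67 CPM. These are 3' counts that were not scaled by transcript length. The comparison asks whether the p63 alphaKO genotype goes with another level of genes that mark stem cell compartments in keratinocytes. Of the 10 genes, 7 averaged at least 1 CPM across the libraries and were tested among 11716 genes, and 0 of the 7 were called by limma at an adjusted p under 0.05, where 0.0427% of all genes tested were called. On the recovered reads edgeR (0.0171% of genes called) and DESeq2 (0.157%) also called 0 of the 7. At an unadjusted p under 0.05 the count was again 0 of 7, against 6.36% of all genes tested. Of the tested markers, 6 had a log2 fold change above 0 and 1 below, where 50.7% of all genes tested lay above 0. Lhx2, among those above 0, averaged under 1 CPM in wild type. The median of the tested markers was 0.17 against 0.01 over all genes tested, and 0.14 for the 6 averaging at least 5 CPM, which leaves out Lhx2. Over the fits that left out 1 library the median of the 7 markers was 0.10 to 0.38. Dropping wild type replicate 13 gave 0.38, dropping p63 alphaKO replicate 11 gave 0.32 and dropping wild type replicate 15 gave 0.10. The median was 0.33 without both p63 alphaKO replicate 11 and wild type replicate 15. Log2 fold changes are positive where p63 alphaKO was higher and are on log2(CPM + 1), a scale that understates the change of low genes.

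**Figure D1:**
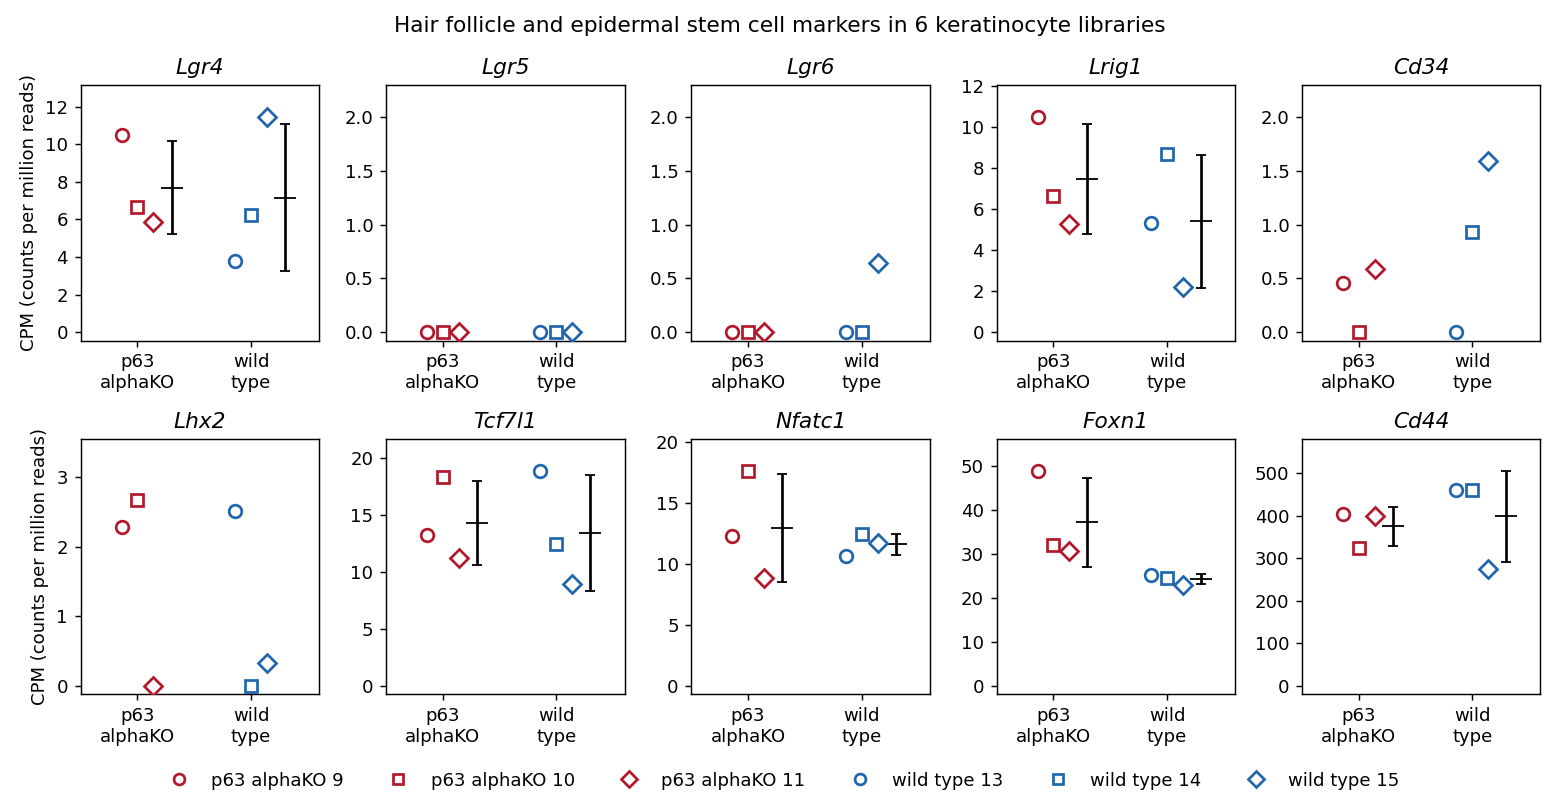
Level of each marker in CPM (vertical axes, linear, a separate scale for each gene) in the 3 p63 alphaKO libraries (left, red) and the 3 wild type libraries (right, blue), 1 symbol per library. Bars beside the points of the 6 genes read in every library are the mean and SD of the 3 libraries. The groups overlap for every gene plotted except Foxn1, where the p63 alphaKO libraries lie at 30.6 to 48.9 CPM and the wild type libraries at 22.9 to 25.1 CPM, and Lgr5 is listed at 0 in all 6 libraries.

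The LGR receptors bind R-spondins, secreted proteins that raise Wnt signalling by removing the ubiquitin ligases ZNRF3 and RNF43 from the cell surface. Lgr4 (chromosome 2, 109917647 to 110014257, plus strand, GRCm38) was at 10.5, 6.66 and 5.88 CPM in p63 alphaKO replicates 9, 10 and 11 and at 3.77, 6.22 and 11.4 CPM in wild type replicates 13, 14 and 15. The highest and the lowest library for Lgr4 were both wild type, and the groups overlapped. Its mean was 7.68 ± 2.47 CPM in p63 alphaKO and 7.14 ± 3.92 CPM in wild type (SD, n = 3 each), a log2 fold change of 0.17 (SE 0.44, limma adjusted p = 0.992). The 95% interval of the difference, 0.587-fold to 2.15-fold, leaves room for a change of 2-fold upwards. The log2 difference was -0.05 without p63 alphaKO replicate 9, -0.16 without wild type replicate 13 and 0.68 without both p63 alphaKO replicate 11 and wild type replicate 15, so its direction depended on single libraries.

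Lgr5 (chromosome 10, 115450311 to 115587780, minus strand), the marker of cycling follicle and intestinal stem cells, had 0 of the 16430358 reads of the 6 libraries, which allows a level of up to 0.183 CPM over all libraries. Lgr6 (chromosome 1, 134983301 to 135105276, minus strand) had 0 reads in p63 alphaKO, which allows up to 0.436 CPM over the group, and 2 reads in wild type, both in replicate 15. No fold is given for either gene. Of the cell type lists, the muscle markers were highest in the same wild type replicate 15, at 694 CPM, against 17.4 to 84.6 CPM in the other 5 libraries. Endothelial markers were also highest there, at 31.1 CPM, just above the 30.6 CPM of p63 alphaKO replicate 11. The same held for blood and immune markers, at 17.8 CPM against 17.6 CPM in wild type replicate 13. The part of these cells in the Lgr6 reads was not tested. Lgr4 was therefore the LGR receptor gene with reads in every library of both genotypes.

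Beside the receptors, ligands of the pathway were scarcely read and its membrane partners were. Rspo1 and Rspo2 had no read in any library, Rspo4 had 1 read in wild type replicate 13, and Rspo3 had 1 read in p63 alphaKO replicate 10 and 2 in p63 alphaKO replicate 11. Znrf3 was at 7.76, 11.0 and 2.35 CPM in p63 alphaKO and 8.48, 10.9 and 2.54 CPM in wild type, with the lowest library of each group well under its other two. Lrp6, a Wnt co-receptor, averaged 29.1 ± 7.48 CPM in p63 alphaKO and 44.3 ± 15.9 CPM in wild type (SD, n = 3 each), a log2 fold change of -0.56 (limma adjusted p = 0.830). Sdc4, a syndecan that binds R-spondin 3 in Xenopus, was at 43.4, 19.3 and 19.4 CPM in p63 alphaKO and 39.0, 37.9 and 73.4 CPM in wild type (log2 fold change -0.88, limma adjusted p = 0.737). Axin2, a direct target of Wnt signalling, was at 7.31, 10.7 and 4.11 CPM in p63 alphaKO and 6.91, 7.46 and 15.3 CPM in wild type, with overlapping groups. Of the 17 genes of the R-spondin and LGR list 11 were tested, 4 above and 7 below 0, with 0 called and a median log2 fold change of -0.13.

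Lrig1 encodes a transmembrane protein that lowers EGF receptor signalling and marks the junctional zone of the follicle. It lies on chromosome 6 (94604529 to 94700158, minus strand) and was at 10.5, 6.66 and 5.29 CPM in p63 alphaKO and 5.34, 8.70 and 2.22 CPM in wild type. Wild type replicate 15 was the lowest of the 6, with 7 reads, and the other wild type libraries lay within the p63 alphaKO range. The means were 7.48 ± 2.70 CPM in p63 alphaKO and 5.42 ± 3.24 CPM in wild type (SD, n = 3 each), a log2 fold change of 0.49 (SE 0.48, limma adjusted p = 0.926) with a 95% interval of 0.703-fold to 2.83-fold. Without wild type replicate 15 the log2 difference was 0.07, without p63 alphaKO replicate 9 it was 0.25, and without both p63 alphaKO replicate 11 and wild type replicate 15 it was 0.26. Slc25a26 overlaps Lrig1 on the opposite strand, with 144 bases of shared exon, and averaged 8.04 CPM, so where counting did not use strand the reads in that stretch cannot be told apart.

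The other LRIG genes and the receptors that LRIG1 acts on did not pass the threshold either. Lrig3 averaged 22.7 ± 11.1 CPM in p63 alphaKO and 30.6 ± 11.7 CPM in wild type (SD, n = 3 each; log2 fold change -0.49, limma adjusted p = 0.906), and Lrig2 stood at 0.25. Egfr was at 64.9, 84.0 and 55.8 CPM in p63 alphaKO and 84.2, 84.9 and 44.2 CPM in wild type, a log2 fold change of -0.02. Errfi1, a feedback inhibitor of EGF receptor signalling, stood at -0.30. Of the 11 genes of this list 9 were tested, 4 above and 5 below 0, with 0 called and a median of -0.02.

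The bulge factors NFATC1 and TCF7L1 were read in every library, and LHX2 in some. Nfatc1, which holds bulge cells in quiescence, lies on chromosome 18 (80606205 to 80713071, minus strand). It was at 12.3, 17.7 and 8.82 CPM in p63 alphaKO and 10.7, 12.4 and 11.8 CPM in wild type. All 3 wild type libraries lay inside the p63 alphaKO range, which spanned 2.00-fold against 1.16-fold in wild type. The log2 fold change was 0.10 (SE 0.36, limma adjusted p = 0.995), with a 95% interval of 0.632-fold to 1.81-fold, and it was -0.14 without p63 alphaKO replicate 10, 0.32 without p63 alphaKO replicate 11 and 0.33 without both replicate 11 and wild type replicate 15. Tcf7l1 (also called Tcf3), a repressor of Wnt target genes in bulge and embryonic epidermal progenitors, lies on chromosome 6 (72626378 to 72789254, minus strand). Its levels were 13.2, 18.3 and 11.2 CPM in p63 alphaKO and 18.9, 12.4 and 8.89 CPM in wild type, so the wild type libraries enclosed the p63 alphaKO ones. The log2 fold change of 0.12 (SE 0.37, limma adjusted p = 0.993) had a 95% interval of 0.633-fold to 1.85-fold, and the value was -0.07 without p63 alphaKO replicate 10, -0.13 without wild type replicate 15 and 0.02 without both p63 alphaKO replicate 11 and wild type replicate 15.

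Lhx2, a LIM homeobox factor that maintains the bulge, lies on chromosome 2 (38339281 to 38369733, plus strand). It had 5, 8 and 0 reads in p63 alphaKO replicates 9, 10 and 11 and 8, 0 and 1 reads in wild type replicates 13, 14 and 15. Several reads were thus held by p63 alphaKO replicates 9 and 10 and by wild type replicate 13 alone, and each group held a library with none. Lhx2 averaged 1.65 CPM in p63 alphaKO and 0.943 CPM in wild type. Its mean of 1.30 CPM over the 6 libraries therefore reached the filter of 1 CPM only with the higher p63 alphaKO libraries. The reads pooled over a group gave a rate ratio of 2.00 (exact 95% interval 0.791 to 5.31, counting error only), and the log2 fold change was 0.46 (SE 0.71, limma adjusted p = 0.970). Leaving out single libraries gave log2 values of 0.09 to 1.06, and leaving out both p63 alphaKO replicate 11 and wild type replicate 15 gave 0.89.

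Cd34, the sialomucin by which bulge cells are sorted in adult mouse skin, lies on chromosome 1 (194938819 to 194961279, plus strand). It had 1, 0 and 1 reads in p63 alphaKO and 0, 3 and 5 reads in wild type, a pooled rate ratio of 0.346 (exact 95% interval 0.0358 to 1.74, counting error only). It did not reach the filter and was not tested. Endothelium, blood progenitors and dermal fibroblasts also make CD34. Endothelial markers summed to 27.4, 14.3 and 30.6 CPM in p63 alphaKO and 18.5, 20.8 and 31.1 CPM in wild type. Of this, Egfl7 alone gave 22.4, 10.0 and 25.3 CPM in p63 alphaKO and 15.4, 20.2 and 26.4 CPM in wild type. Over all libraries Flt1 had 24 reads, Pecam1 18, Eng 10, Tek 4, Cdh5 3 and Tie1 1, while Kdr, Emcn and Cldn5 had no read. Fibroblast markers summed to 14.1 to 77.7 CPM in p63 alphaKO and 29.9 to 76.0 CPM in wild type, with Lum at 0. Blood and immune markers summed to 10.5, 15.7 and 9.4 CPM in p63 alphaKO and 17.6, 7.77 and 17.8 CPM in wild type. Over all libraries Cd68 had 173 of these reads and Kit 40. Ptprc had 2 reads, both in p63 alphaKO replicate 10, and H2-Aa, H2-Ab1, Cd3e, Itgam and Cd207 had no read. The part of these cells in the Cd34 reads was not tested. Of the CD34 family and its ligands, Podxl, Selp and Sele had no read in any library, and the adaptor gene Crkl, the 1 gene tested, stood at 0.08.

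Partners of the bulge factors held some of the wider differences, and 0 of them passed the threshold. Ldb1, the cofactor through which LIM homeobox proteins such as LHX2 assemble into complexes, was at 16.0, 7.0 and 20.0 CPM in p63 alphaKO and 36.1, 31.4 and 23.2 CPM in wild type. All 3 p63 alphaKO libraries were below all 3 wild type libraries, which held for 5.09% of all genes tested in that direction. The log2 fold change of Ldb1 was -1.12 (SE 0.37, limma adjusted p = 0.646). Ssbp3, which binds LDB1, stood at -0.58 with overlapping groups. Ssbp2, of the same list, went the other way without overlap, as did 6.45% of all genes tested. It was at 17.35, 14.0 and 14.1 CPM in p63 alphaKO and 10.4, 10.9 and 11.4 CPM in wild type (log2 fold change 0.44, limma adjusted p = 0.891). Of the LIM homeobox list 5 of 11 genes were tested, 3 above and 2 below 0, and Lhx1, Lhx6, Lhx8 and Lhx9 had no read in any library. Around NFATC1, Rcan3 and Rcan1, regulators of the phosphatase calcineurin that activates NFAT proteins, did not overlap between the groups. For both, all p63 alphaKO libraries were above wild type, as for 6.45% of all genes tested. Rcan3 was at 31.5, 18.0 and 24.7 CPM in p63 alphaKO and 7.86, 14.9 and 14.9 CPM in wild type (log2 fold change 0.94, limma adjusted p = 0.729). Rcan1, itself a target of NFAT, was at 51.6, 41.7 and 54.1 CPM in p63 alphaKO and 33.6, 24.6 and 40.0 CPM in wild type (log2 fold change 0.59, limma adjusted p = 0.777). The NFAT and calcineurin list had 6 of 10 tested genes above 0 and 4 below, with 0 called and a median of 0.05; Nfatc3, at 123 to 181 CPM in p63 alphaKO and 144 to 207 CPM in wild type, and Nfat5 were its other family members tested.

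Among the TCF/LEF partners, Cby1, an antagonist of beta-catenin, was at 16.4, 15.0 and 25.9 CPM in p63 alphaKO and 9.11, 9.33 and 14.0 CPM in wild type (log2 fold change 0.75, limma adjusted p = 0.775). All its p63 alphaKO libraries were above wild type, as for 6.45% of all genes tested. Tcf7l2, the paralog of Tcf7l1, was at 18.3, 19.0 and 4.70 CPM in p63 alphaKO and 16.3, 16.2 and 18.7 CPM in wild type, where replicate 11 alone lay apart from the rest. Lef1, which activates Wnt target genes in the hair matrix, was at 0.91, 1.00 and 2.35 CPM in p63 alphaKO and 1.89, 0.31 and 0 CPM in wild type. Hipk2, a kinase of the complex, stood at -0.47 with overlap. Ctnnb1, encoding beta-catenin, averaged 434 ± 69.9 CPM in p63 alphaKO and 500.5 ± 10.9 CPM in wild type (SD, n = 3 each; log2 fold change -0.22). Of the 15 genes in this list 14 were tested, 5 above and 9 below 0, with 0 called and a median of -0.17.

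Foxn1, mutated in the nude mouse, was the marker whose genotypes did not overlap. This forkhead factor lies on chromosome 11 (78357577 to 78386558, minus strand) and was at 48.9, 32.0 and 30.6 CPM in p63 alphaKO and 25.1, 24.6 and 22.9 CPM in wild type. All 3 p63 alphaKO libraries were above all 3 wild type libraries, which held for 6.45% of all genes tested in that direction. Foxn1 was 1 of the 7 markers tested, and 11.5% of all genes tested did not overlap, counting either direction. Behind the Foxn1 levels stood 107, 96 and 52 reads in p63 alphaKO and 80, 79 and 72 reads in wild type. The means were 37.1 ± 10.2 CPM in p63 alphaKO and 24.2 ± 1.18 CPM in wild type (SD, n = 3 each), 1.48-fold on the fitted scale with a 95% interval of 0.972-fold to 2.26-fold. The log2 fold change of 0.57 (SE 0.29) had an unadjusted p of 0.0659 and an adjusted p of 0.794 in limma, so it did not pass, and 971 genes had a smaller p. It was 0.36 without p63 alphaKO replicate 9, 0.53 to 0.69 without any other single library and 0.65 without both p63 alphaKO replicate 11 and wild type replicate 15.

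The 250 bases before the Foxn1 start are shown because Foxn1 was the marker without overlap, and those of Cd44 because it had by far the most reads of the markers. They are RefSeq windows on GRCm38.p6, read 5' to 3' along the gene's strand, at chr11:78386609-78386858 (minus strand) for Foxn1 and chr2:102901666-102901915 (minus strand) for Cd44. The RefSeq start of Foxn1 lies upstream of the GENCODE gene given above. Capitals mark matches to CNNGNNNNNNCNNG, the spaced core letters of the response element bound by p53 family proteins, which reads the same on both strands and whose matches may overlap.
Foxn1: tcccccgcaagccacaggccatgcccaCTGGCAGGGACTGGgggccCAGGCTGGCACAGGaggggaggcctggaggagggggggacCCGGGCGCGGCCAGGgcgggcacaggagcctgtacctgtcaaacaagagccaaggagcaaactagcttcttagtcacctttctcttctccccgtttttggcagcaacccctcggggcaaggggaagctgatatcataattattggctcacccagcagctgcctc
Cd44: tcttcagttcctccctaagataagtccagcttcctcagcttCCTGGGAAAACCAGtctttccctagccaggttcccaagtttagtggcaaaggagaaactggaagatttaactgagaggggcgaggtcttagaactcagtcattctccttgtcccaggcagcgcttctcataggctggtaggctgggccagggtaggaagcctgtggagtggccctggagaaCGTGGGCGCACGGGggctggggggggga
The Foxn1 window held 4 such matches and the Cd44 window 2. Windows were found for 8 of the 10 markers, 9 in all because Lhx2 has a pair, and all 9 held a match, as did 63.5% of the 32841 RefSeq windows of the same length. The fixed letters of the core are all C or G. The share of C and G ran from 46.4% (Cd34) to 73.6% (Tcf7l1) in the marker windows, with Foxn1 at 63.2% and Cd44 at 56.4%. The counts of matches were not compared between windows of equal content, so no excess is read from them. With so short a core a match is a description of the letters and not a binding site.

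Genes of the hair shaft and of FOXN1's surroundings were not called. Msx2, a homeobox gene acting upstream of Foxn1 in the hair matrix, was at 2.28, 0.67 and 4.70 CPM in p63 alphaKO and 9.74, 15.2 and 11.4 CPM in wild type (log2 fold change -2.04, limma adjusted p = 0.324), opposite in sign to Foxn1. All its p63 alphaKO libraries were below wild type, as for 5.09% of all genes tested. Cux1 was at 27.6 to 41.1 CPM in p63 alphaKO and 43.7 to 64.8 CPM in wild type (log2 fold change -0.54, limma adjusted p = 0.795). Hoxc13, a regulator of hair keratin genes, was at 10.1, 11.7 and 12.3 CPM in p63 alphaKO and 17.3, 12.1 and 19.4 CPM in wild type (log2 fold change -0.46). Keratins of the hair shaft and inner root sheath were near 0: Krt25, Krt27, Krt28, Krt31, Krt34 and Krt35 had no read in any library, and Krt71 had 2 reads, both in wild type replicate 13. Shh had no read in any library. Other genes of the list were read in every library. Tchh was at 28.2 to 66.0 CPM in p63 alphaKO and 47.0 to 66.0 CPM in wild type (log2 fold change -0.46). Gata3 was at 74.1 to 135 CPM in p63 alphaKO and 88.9 to 136 CPM in wild type (log2 fold change -0.04). Of the 21 genes of this list 11 were tested, 4 above and 7 below 0, with 0 called and a median of -0.07.

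Cd44 (chromosome 2, 102811141 to 102901665, minus strand) was at 405, 323 and 399 CPM in p63 alphaKO and 461, 460 and 274 CPM in wild type. The p63 alphaKO libraries lay between wild type replicate 15 and the other wild type libraries, which were nearly equal. Its mean was 375 ± 45.5 CPM in p63 alphaKO and 398 ± 107 CPM in wild type (SD, n = 3 each), a log2 fold change of -0.05 (SE 0.24, limma adjusted p = 0.995). The 95% interval, 0.680-fold to 1.37-fold, was the narrowest of the 7 markers tested. Within that interval the sign turned with single libraries: the log2 value was 0.05 without p63 alphaKO replicate 10, 0.07 without wild type replicate 13 and 0.07 without wild type replicate 14, and it was -0.30 without wild type replicate 15 and -0.35 without both p63 alphaKO replicate 11 and wild type replicate 15. In the annotation the 8 protein-coding Cd44 transcripts have 6 different 3' ends, and the value per gene adds up the standard and the variant-exon isoforms.

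Hyaluronan genes and splice regulators around CD44 were not called. Hyal1, a hyaluronidase, was at 54.3, 56.7 and 66.4 CPM in p63 alphaKO and 38.0, 52.2 and 35.3 CPM in wild type (log2 fold change 0.50, limma adjusted p = 0.795). All its p63 alphaKO libraries were above wild type, as for 6.45% of all genes tested. Has2, a hyaluronan synthase, had 5, 0 and 8 reads in p63 alphaKO and 13, 14 and 14 reads in wild type; the log2 fold change was -0.995 (limma adjusted p = 0.839), and in CPM p63 alphaKO replicate 11 lay just above wild type. Esrp1 and Esrp2, which set the epithelial splice form of CD44, stood at -0.11 and -0.15. Of the 17 genes of this list 13 were tested, 6 above and 7 below 0, with 0 called and a median of -0.06. Among 9201 genes averaging at least 5 CPM, those whose profile over the 6 libraries was nearest to that of Cd44 were Tmem43, Kank3 and Ampd2. Their root mean square differences from Cd44 on the centred log2 scale were 0.06 for Tmem43, 0.07 for Kank3 and 0.10 for Ampd2; with 6 libraries this is a description only.

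**Figure D2:**
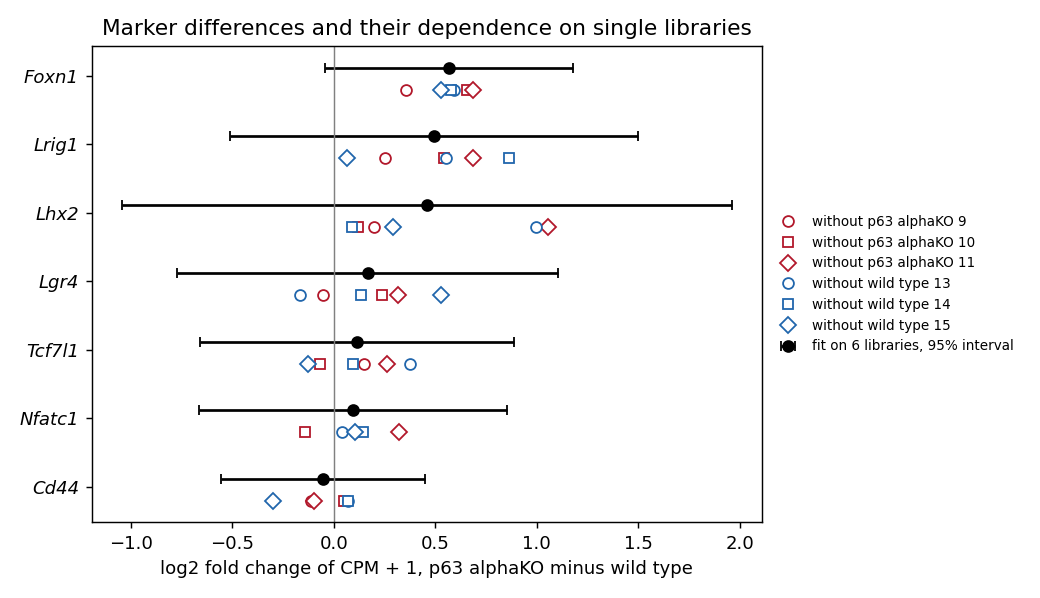
Log2 fold change of CPM + 1, p63 alphaKO minus wild type (horizontal axis), for the 7 markers tested. Black points with bars are the fit on all 6 libraries with its 95% interval, and open symbols are fits that leave out 1 library each, red for a p63 alphaKO and blue for a wild type library. Every black interval crosses 0, and the open symbols of Foxn1, Lrig1 and Lhx2 stay above 0 while those of Lgr4, Tcf7l1, Nfatc1 and Cd44 fall on both sides.

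Several markers were low in the same library, though not all of them. Wild type replicate 15 was the lowest library for 4 of the 7 markers tested, Lrig1, Tcf7l1, Foxn1 and Cd44, and at the same time the highest for Lgr4. Relative to each gene's own mean over the 6 libraries, p63 alphaKO replicate 9 lay above for 6 of 7 markers, p63 alphaKO replicate 10 for 5 and p63 alphaKO replicate 11 for 2. Of the wild type libraries, replicates 13 and 14 lay above for 3 of 7 each and replicate 15 for 1. For 6 of the 7 the difference between the group means in CPM was smaller than the pooled SD of the libraries, the exception being Foxn1 with a difference of 12.9 CPM and a pooled SD of 7.245 CPM. Between its lowest and highest library Lgr4 ranged 1.79-fold within p63 alphaKO and 3.03-fold within wild type. For Lrig1 that range was 1.99-fold within p63 alphaKO and 3.92-fold within wild type.

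Further markers of the bulge, isthmus and infundibulum, outside the 10 genes, were read unevenly. Sox9, needed to form the bulge, averaged 345 ± 101 CPM in p63 alphaKO and 372 ± 108 CPM in wild type (SD, n = 3 each; log2 fold change -0.11). Plet1, an isthmus marker, was at 267, 177 and 235 CPM in p63 alphaKO and 152, 254 and 124 CPM in wild type, with overlap. Krt15, a keratin of basal and bulge cells, was at 2.74, 4.67 and 1.18 CPM in p63 alphaKO and 16.3, 8.39 and 17.8 CPM in wild type (log2 fold change -2.02, limma adjusted p = 0.299). Sostdc1, an inhibitor of BMP and Wnt signalling, was at 5.48, 9.66 and 2.94 CPM in p63 alphaKO and 13.2, 14.0 and 19.7 CPM in wild type (log2 fold change -1.34, limma adjusted p = 0.646). For both, all p63 alphaKO libraries were below wild type, as for 5.09% of all genes tested, and neither passed. Defb6 went the other way without overlap, as did 6.45% of all genes tested. It was at 5.94, 4.33 and 4.11 CPM in p63 alphaKO and 0, 3.42 and 0.95 CPM in wild type (log2 fold change 1.48, limma adjusted p = 0.737). Krt19, Krt24, Gli1, Postn and Gata6 had no read in any library. Of the 23 genes 16 were tested, 5 above and 11 below 0, with 0 called and a median of -0.19. Basal progenitor genes had 6 of 15 above 0 and 9 below, with 0 called and a median of -0.04. Dll1, a Notch ligand of basal cells, was at 7.64 to 10.7 CPM in p63 alphaKO and 13.3 to 22.3 CPM in wild type (log2 fold change -0.82, limma adjusted p = 0.767). Its groups did not overlap, as for 5.09% of all genes tested in that direction. Slc1a3, a glutamate transporter, stood at 1.12 with overlap (limma adjusted p = 0.806).

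**Figure D3:**
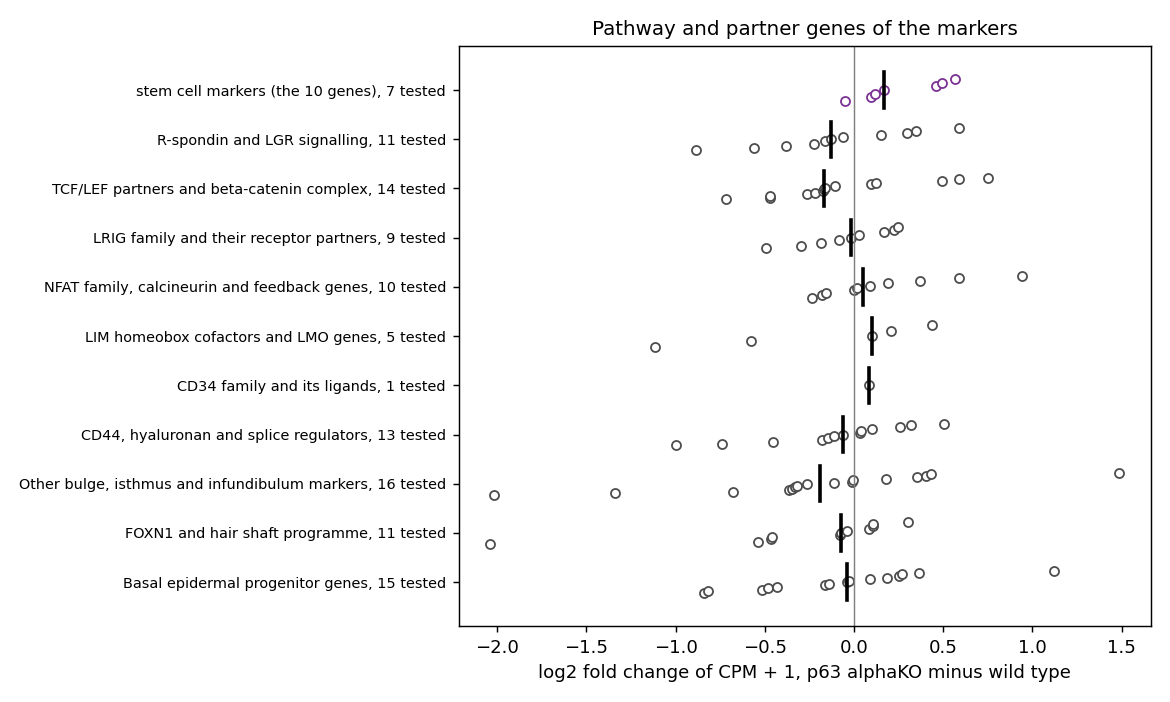
Log2 fold change of CPM + 1, p63 alphaKO minus wild type (horizontal axis), of each tested gene (open points) in the 10 marker genes (top, purple) and in 10 lists of their pathway and partner genes (grey), with the list median as a vertical bar. The number tested stands beside each list, points are spread vertically for legibility, and list medians lie between -0.19 and 0.17.

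Over the 10 lists together, 104 different genes were tested, 43 above and 61 below 0, with a median log2 fold change of -0.07. limma called 0 of them, and 12 had an unadjusted limma p under 0.05 (11.5%, against 6.36% of all genes tested). For 13 of the 104 (12.5%) the genotypes did not overlap, against 11.5% of all genes tested. The lists were chosen with earlier results of these data known, so these shares are a description and their differences were not tested.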

How the data were processed

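RNA of 6 libraries of primary keratinocytes, 3 p63 alphaKO and 3 wild type, was read as deposited by the authors in CPM with 2 decimals, 1 column per library. The submitters' processing notes name STAR, HTSeq and mm10; their versions, the annotation, strand use and any molecular identifiers are not stated there. Values above 0 lay within 0.1 read of whole multiples of the CPM of 1 read (100% in each library), so reads were recovered by division.

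The 11716 genes averaging at least 1 CPM were tested with limma 3.58.1 in R 4.3.3 (trend, two-sided) on log2(CPM + 1), with Benjamini-Hochberg adjustment over all of them and a threshold of 0.05. The count tests edgeR 4.0.16 and DESeq2 1.42.0 on recovered reads, which called 2 and 18 genes over the whole table, were alternatives, beside other pseudocounts, filters, scalings and variance models and fits without single libraries. Rate ratios have exact 95% intervals from pooled reads (scipy 1.17.1), and reads without molecular identifiers are not independent molecules.

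The 10 markers and the 10 lists, 149 genes of which 1 is not listed in the table, were chosen with earlier results of these data known. Named were the markers and, from each list, genes past the threshold or otherwise the 2 of smallest p, and ligands, partners or paralogs of a marker by their level. Sox9, Plet1, Axin2, Hoxc13, Defb6, Ssbp2, Tchh, Gata3 and the genes without a read were named after their values were seen. Positions are from GENCODE vM21 on GRCm38, upstream windows from RefSeq. The groups share no replicate numbers.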

Additional observations from a re-analysis of the deposited data

How the results depend on the processing

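Under 17 alternatives the 7 tested markers gave 118 values, of which 0 passed an adjusted p of 0.05 and 110 kept their direction; the lowest adjusted p was 0.509, for Foxn1 without both p63 alphaKO replicate 11 and wild type replicate 15. The 8 values of opposite sign all came from leaving out a single library, with ranges of -0.16 to 0.53 for Lgr4, -0.14 to 0.32 for Nfatc1, -0.13 to 0.38 for Tcf7l1 and -0.30 to 0.0726 for Cd44, and the cause was not tested. Foxn1 ranged over 0.36 to 0.69, Lrig1 over 0.07 to 0.86 and Lhx2 over 0.09 to 1.06. Lhx2 has no value at a minimum of 5 CPM. The median log2 fold change of the tested markers, 0.17, lay between 0.09 (pseudocount of 5) and 0.38 (wild type replicate 13 left out). Under every alternative it moved by less than 0.3. That value is the SD, between libraries of a genotype, of the markers' median level per library on centred log2(CPM + 1). It is not the SD of a fold change. The number of genes called over the whole table, 5, was 2 with a pseudocount of 0.5, 3 with 5, 1 with no filter, 2 at a minimum of 5 CPM, 0 without a trend, 2 by edgeR, 18 by DESeq2, between 2 and 13 with a library left out (13 when p63 alphaKO replicate 11 was dropped, 3 for p63 alphaKO replicate 10, 2 for wild type replicates 13 and 14) and 48 without both p63 alphaKO replicate 11 and wild type replicate 15; the cause was not tested. No paired analysis was possible because the groups share no replicate numbers. Depth limits Lgr5, Lgr6, Cd34 and Lhx2, at 0 to 22 reads each over all libraries, where a difference of several fold was not detectable.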
